A study of Mus musculus with 16 samples.

Results

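EC2 is a subcluster of cardiac endothelial cells, the cells that line the blood vessels and chambers of the heart. Its members are the cells that the authors' deposited annotation assigns to the subcluster EC2, taken as deposited with no clustering added here. They number 86 of the 1858 cells annotated as endothelial (EC) and of the 11492 cells in all. All 86 lay on 1 of the 12 plates, 70 of them from the mouse 0w_1 and 16 from the mouse 0w_2. That plate held 1303 cells, of which 708 were EC, so the other EC of the plate number 622. The subcluster EC1 had 371 cells on the plate, of 386 in all, and served as a second comparison.

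Left ventricles were taken from 16 male mice in a model of pressure overload by TAC (transverse aortic constriction), at disease stages that the labels name in weeks. The mice of the EC2 plate are the 2 mice labelled 0w, and the 14 other mice are labelled 2w (2), 5w (7), 8w (3) and 11w (2). Whether the 0w mice had surgery is not stated in the labels, and neither are strain, age and genotype. There were 2 digestions, one for myocytes (protease XXIV with collagenase II) and one for the remaining cells (a papain enzyme), and SMARTScribe reagents with WaferGen oligos gave the cDNA.

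Endothelial cells of the heart divide by the vessel they line. Most are capillary cells, which take up fatty acids from the blood for the muscle through Cd36 and Fabp4 and respond to the growth factor VEGF through the receptor Kdr. Endocardial cells line the chambers and are known for Npr3, a receptor that clears natriuretic peptides, and for Vwf, the clotting protein von Willebrand factor. A subcluster from a clustering of single cells can mark such a vessel type, a state of the cells, or a set of libraries that differ for other reasons.

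The values are whole counts of unique molecular identifiers (UMIs), which count captured RNA molecules. Levels are given as CPM, the count scaled to 1e6 of the UMIs of a group of cells without the mitochondrially encoded genes. A log2 difference is the log2 of the ratio of 2 levels after 1 CPM was added to each. The subclusters were made from these genes, so EC2 against other EC is a description and has no test. Cells of 1 mouse are not replicates, and values are therefore given for each of the 2 mice, where EC2 holds 70 and 16 cells.

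EC2 cells carried endothelial RNA at about the level of their neighbours. Pecam1, an adhesion protein of endothelial junctions, stood at 378 CPM in EC2 of 0w_1 and 294 CPM in EC2 of 0w_2, against 471 and 336 CPM in the other EC of these mice. Cdh5, the cadherin of endothelial junctions, stood at 537 and 564 CPM in EC2, against 611 and 650 CPM in the other EC. A UMI of Pecam1 was found in 73.3% of EC2 cells and in 46.5% of other EC, and a UMI of Cdh5 in 59.3% and 54.5%. After each cell was thinned to 3000 UMIs, so that depths were equal, these shares were 36.5% of EC2 and 21.9% of other EC for Pecam1, and 29.4% and 30.9% for Cdh5. In other cell types of the plate the same measure for Pecam1 was 7.20% in fibroblasts (FB), 11.4% in macrophages (MP) and 5.26% in T cells. For Cdh5 it was 6.78% in FB, 10.9% in MP and 6.58% in T cells. The 10 endothelial markers together summed to 8452 CPM in EC2 and 9375 CPM in other EC, against 1443 CPM in FB, 1553 CPM in MP and 982 CPM in T cells. These sums bore out the label EC. None of the 10 was at 0 in EC2, but neither was any of 12 cardiomyocyte or 10 fibroblast markers, so this does not tell types apart.

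EC2 was found in the 0w mice and in no other mouse. EC2 made up 17.5% of the EC of 0w_1 (70 of 400, exact 95% interval 13.9 to 21.6%) and 5% of those of 0w_2 (16 of 320, 2.88 to 7.99%). The other 14 mice gave 0 of 1138 EC, which allows a share of up to 0.264%, and intervals and limits here cover counting error only. Over the 10 mice with at least 20 EC, the EC2 share averaged 11.3% ± 8.84 at 0w (SD, n = 2) and 0% in the 8 mice of later stages. No test is read from these shares: with 2 mice above 0, a permutation p depends on how many mice each stage holds. Stage and plate cannot be told apart: no EC of another stage lay on this plate, and only 12 EC of the 0w mice lay on another plate. None of those 12 was EC2, which at that number allows a share of up to 25%.

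Within the plate, EC2 lay in 1 corner. Each cell's name carries 2 position numbers after the plate, both from 0 to 71, whose meaning the labels do not give. EC2 cells had a first number of 0 to 37 with a median of 14, and a second number of 0 to 18 with a median of 5. The other EC spanned 0 to 71 on both numbers. The rectangle that EC2 spans covers 722 of the 5184 positions, or 13.9%, and held 142 of the 708 EC of the plate. Of these 142 EC, 86 were EC2, 37 were EC1 and 17 were EC4. Since the rectangle was drawn around EC2, the absence of EC2 outside it is no result, but the composition inside it is described below.

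The corner ran across both mice. The second number alternated between the mice in blocks of 12, with 0w_1 at 0 to 11, 24 to 35 and 48 to 59 and 0w_2 at 12 to 23, 36 to 47 and 60 to 71. EC2 took 70 of the 153 EC of the first block of 0w_1 and 0 of its 113 and 126 EC in the later blocks. It took 16 of the 121 EC of the first block of 0w_2 and 0 of its 93 and 102 EC in the later ones. With the first number times 0.5 added to the second, a measure chosen after the positions were seen, every EC2 cell fell at 23 or below. Below 10 on that measure 28 of 37 EC were EC2, between 10 and 20 it was 43 of 55, between 20 and 25 it was 15 of 41, and from 25 on it was 0. In the band from 10 to 20 the count was 31 of 40 EC in 0w_1 and 12 of 15 EC in 0w_2, and in the band from 20 to 25 it was 11 of 23 and 4 of 18. The shares of the 2 mice were thus close in the band from 10 to 20, while 0w_2 had no EC at all below 10.

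**Figure D1:**
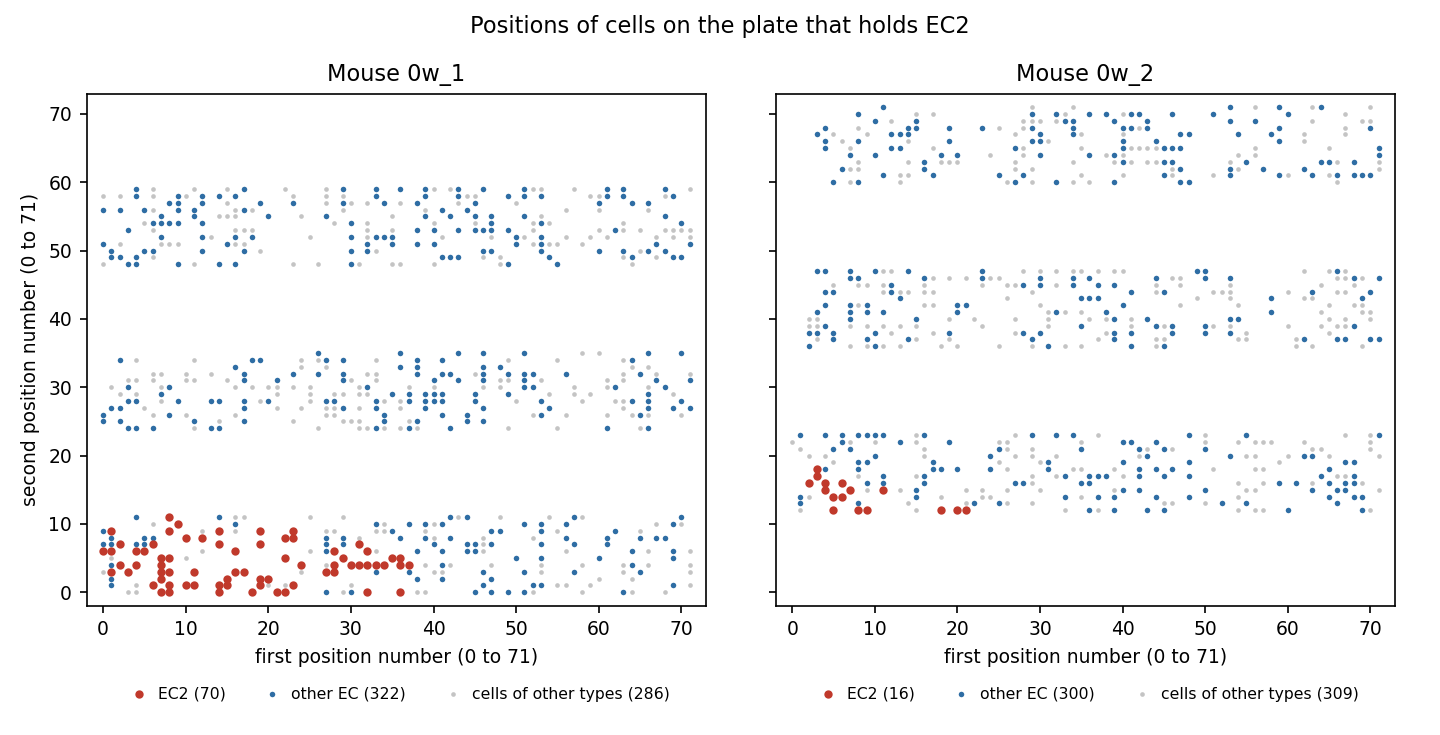
Each point is 1 cell of the plate that holds EC2, at the first (x axis) and second (y axis) position number in its name, for mouse 0w_1 (left) and 0w_2 (right); EC2 is red, other EC blue and cells of other types grey, with their numbers in the legend. All EC2 cells have a first number of 37 or less and a second number of 18 or less, whereas other EC and other cells occupy both full ranges within each mouse's blocks.

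More of the cells in that rectangle were EC than elsewhere on the plate, a description only, as the rectangle was drawn around EC. In 0w_1, 77.6% of the 125 cells in it were EC (exact 95% interval 69.3 to 84.6%), against 53.3% of 553 cells outside it (49.1 to 57.6%). In 0w_2 the shares were 62.5% of 72 cells inside (50.3 to 73.6%) and 49.0% of 553 cells outside (44.8 to 53.3%). The authors' annotation also splits each mouse's cells into the groups API and PI, which the labels do not explain. EC2 held 42 API and 28 PI cells in 0w_1 and 13 API and 3 PI cells in 0w_2, and API cells take first numbers of 0 to 53 on this plate and PI cells 18 to 71.

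EC2 cells held more genes from no more UMIs than other EC as a whole. The median EC2 cell had 16468 UMIs and 2275 detected genes, against 18222 UMIs and 1316 genes in other EC and 14741 UMIs and 1134 genes in EC1. Of these genes, 1199 in EC2 and 564 in other EC rested on 1 UMI. Thinned to 3000 UMIs, the median was 851 genes in EC2 and 616 in other EC, with 1 and 11 shallower cells left out. By mouse it was 836 genes in EC2 and 607 in other EC of 0w_1, and 921 and 633.5 genes in 0w_2, so EC2 was higher in both. Thinned to 2000 UMIs the medians were 651.5 and 509 genes, and thinned to 5000 UMIs they were 1134 and 776.5 genes.

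Genes per cell inside and outside the rectangle were as follows for the other cells of the plate. Other EC inside the rectangle had a median of 640 genes at 3000 UMIs, against 613 outside it, and EC1 had 576 inside and 566 outside. These neighbours of EC2 were also deeper, with a median of 30025 UMIs. Of the cells that are not EC, those inside the rectangle had 704 genes and those outside it 664. MP had 760 genes inside and 710 outside, T cells 613 and 562, and FB 689.5 and 706. EC3 had more genes than EC2 on this measure, with a median of 878, and lay at first numbers of 59 to 71. EC4 had a median of 855 genes inside the rectangle, about that of EC2, and 762.5 outside it. Mitochondrially encoded genes took a median of 34.1% of the UMIs of an EC2 cell and 38.6% of those of other EC. The part of depth, position and RNA quality in the differences below was not tested.

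**Figure D2:**
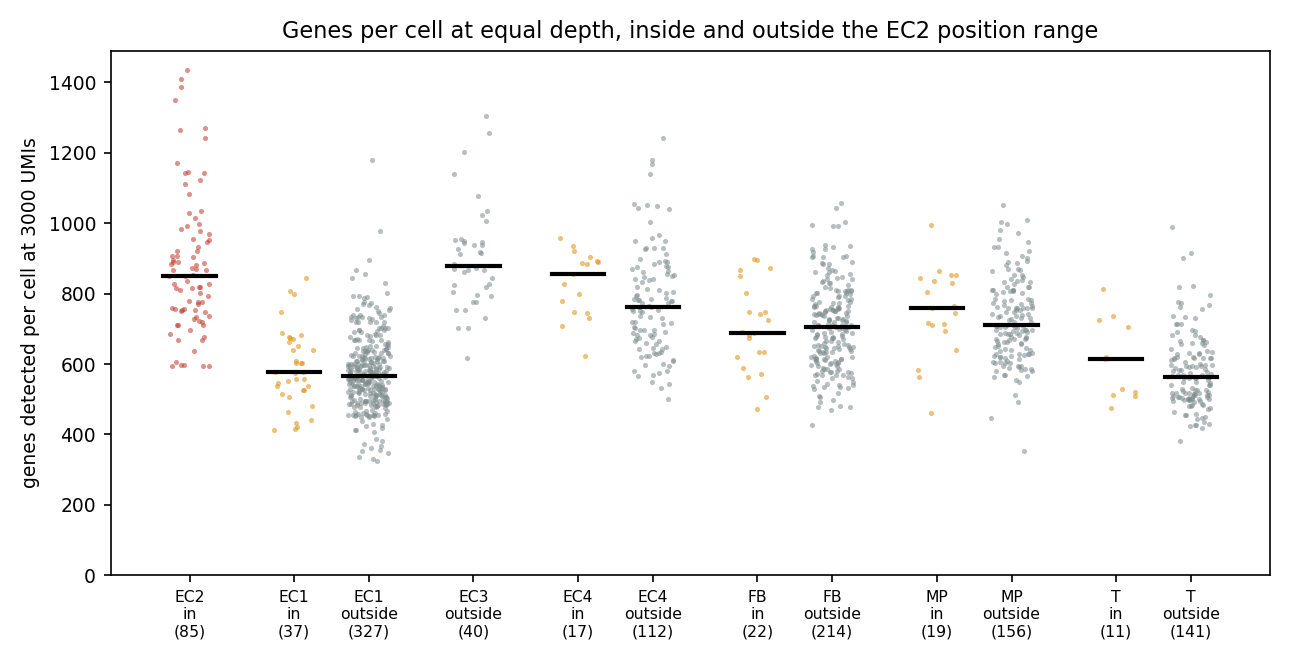
Genes detected per cell (y axis) after each cell was thinned to 3000 UMIs, for subclusters and cell types of the plate (x axis), inside ("in") and outside the position rectangle of EC2, with cell numbers in parentheses; points are cells and bars are medians. EC2 has a median of 851 genes, above EC1 inside (576) and outside (566) the rectangle and near EC3 (878).

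Genes that were high in EC2 were detected in more of its cells, but most of their UMIs sat in 1 cell. Of 2019 genes at 100 CPM or more in EC2 or in other EC, 130 (6.44%) were at least 4-fold higher in EC2 and 103 (5.1%) at least 4-fold lower, with the same sign in both mice. Over all 2019 the median log2 difference was 0.14, and 57.0% had the same sign in both mice. The split between higher and lower depended on the totals: with mitochondrially encoded genes in them it was 89 higher and 23 lower, and without the highest cell of each gene 17 higher and 139 lower. Predicted and ribosomal protein genes were left out of these counts and of the names below.

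The 15 genes with the highest ratio included secreted proteins, enzymes, adhesion proteins and regulators of transcription. Scgb1a1, the secretoglobin known from club cells of the airway, stood at 348 and 17.5 CPM in EC2 of 0w_1 and 0w_2, against 1.93 and 6.11 CPM in the other EC. It had a UMI in 39.5% of EC2 cells and in 2.73% of other EC, and 80.4% of its 601 UMIs in EC2 came from 1 cell. Zfpm2, a cofactor of GATA transcription factors also known as FOG2, stood at 189.8 and 3.51 CPM in EC2, against 0.903 and 0.390 CPM in other EC. Of its 326 UMIs in EC2, 95.1% came from 1 cell. EC2 of 0w_2 held 285289 UMIs in all, so 3.51 CPM is the lowest level above 0 there. The same sign of Zfpm2 in 0w_2 rests on that level. Both genes were thus high in pooled EC2 mainly through 1 cell, and above other EC in more of them.

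Bmper, a secreted modulator of BMP signalling made by endothelial cells, stood at 179 and 21 CPM in EC2, against 5.29 and 1.17 CPM in other EC, with a UMI in 32.6% and 4.34% of the cells. Rnf144b, a ubiquitin ligase, stood at 330.0 and 24.5 CPM in EC2, against 10.3 and 7.41 CPM in other EC, with a UMI in 33.7% and 5.47% of the cells. Adcy7, an adenylate cyclase, stood at 151 and 63.1 CPM in EC2, against 1.42 and 5.20 CPM in other EC, with a UMI in 29.1% and 3.38% of the cells. Within EC2, 0w_1 was well above 0w_2 for each of these 3 genes. In EC2 1 cell held 75% of the UMIs of Bmper, 71.2% of those of Rnf144b and 80.1% of those of Adcy7. The genes were chosen for a high ratio with the same sign in both mice, so their order between the groups is no result.

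L1cam, a neural cell adhesion molecule, and Polr3d, a subunit of RNA polymerase III, were the exceptions in which 0w_2 was the higher mouse by far. L1cam stood at 115 and 396 CPM in EC2, against 0.387 and 10.4 CPM in other EC. Polr3d stood at 33.3 and 722 CPM in EC2, against 3.35 and 2.86 CPM in other EC. Clec5a, a lectin receptor of myeloid cells, stood at 155 and 189 CPM in EC2, against 5.55 and 4.94 CPM in other EC. Of its 320 UMIs in EC2, 73.1% came from 1 cell, so the near-equal levels of the 2 mice rest largely on that cell. The remaining 7 were RP23-103I12.3, which the annotations used here do not name, and Mall, Tbc1d24, Dbp, Dsel, Wdr91 and Nxpe2, with log2 differences of 4.57 to 7.05. Of these, Mall stood at 3.51 CPM in EC2 of 0w_2, the lowest level above 0 there. The next gene in the order, Tfcp2, had a log2 difference of 4.53.

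In 14 of the 15 genes at least 50% of the UMIs in EC2 came from 1 cell, with a median of 77.9%. Without the highest cell of each group, all 15 were still at least 4-fold higher in EC2, with a median log2 difference of 3.74. With that cell kept, all 15 were at least 2-fold higher than in the other EC of the rectangle. The genes were chosen for a high level in EC2, and these settings were not combined.

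The 15 genes with the lowest ratio were of mixed function. Tcap, the titin cap protein of the sarcomere, stood at 34.5 and 59.6 CPM in EC2, against 491 and 583 CPM in other EC. Higd1b, known from pericytes, stood at 4.09 and 10.5 CPM in EC2, against 172 and 112 CPM in other EC, while a UMI of it was found in 10.5% of EC2 cells and 5.47% of other EC. Acadl, an enzyme of fatty acid oxidation in mitochondria, stood at 4.67 and 42.1 CPM in EC2, against 151 and 135 CPM in other EC. All 3 were chosen for a low ratio with the same sign in both mice, so that EC2 lay below other EC in both mice is no result.

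Others were of endothelial or general use. Vamp5, a SNARE protein of vesicle transport, stood at 28.6 and 14.0 CPM in EC2, against 369 and 335 CPM in other EC. Ackr3, a receptor that removes the chemokine Cxcl12, stood at 8.76 and 14.0 CPM in EC2, against 179 and 99.7 CPM in other EC. Cytl1, a secreted protein listed here as endocardial, stood at 35 and 7.01 CPM in EC2, against 270.0 and 511 CPM in other EC. For these genes the shares of cells differed little or ran the other way: a UMI of Vamp5 was found in 36.0% of EC2 cells and 30.5% of other EC, of Ackr3 in 16.3% and 15.9%, and of Cytl1 in 30.2% and 17.5%. Their lower CPM in EC2 thus came with fewer UMIs in the cells that had any. At 3000 UMIs per cell the share was lower in EC2 for each, at 9.41% and 16.5% for Vamp5, 3.53% and 5.56% for Ackr3 and 5.88% and 7.36% for Cytl1.

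The remaining 9 of the 15 lowest were Ctf2, Btbd3, Tsn, Tenc1, Tmbim4, Nup153, Akap8, Aamdc and Fbxo11, with log2 differences of -6.15 to -3.64, and the next gene, Lamtor5, had -3.57. All 15 stayed at least 4-fold lower without the highest cell of each group. Against the other EC of the rectangle 11 of 15 were at least 2-fold lower and 13 of 15 had the same sign. Ctf2 and Nup153 turned round there, with log2 differences of 0.04 and 1.15, and 1 cell held up to 83.0% of the UMIs of a gene in other EC.

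**Figure D3:**
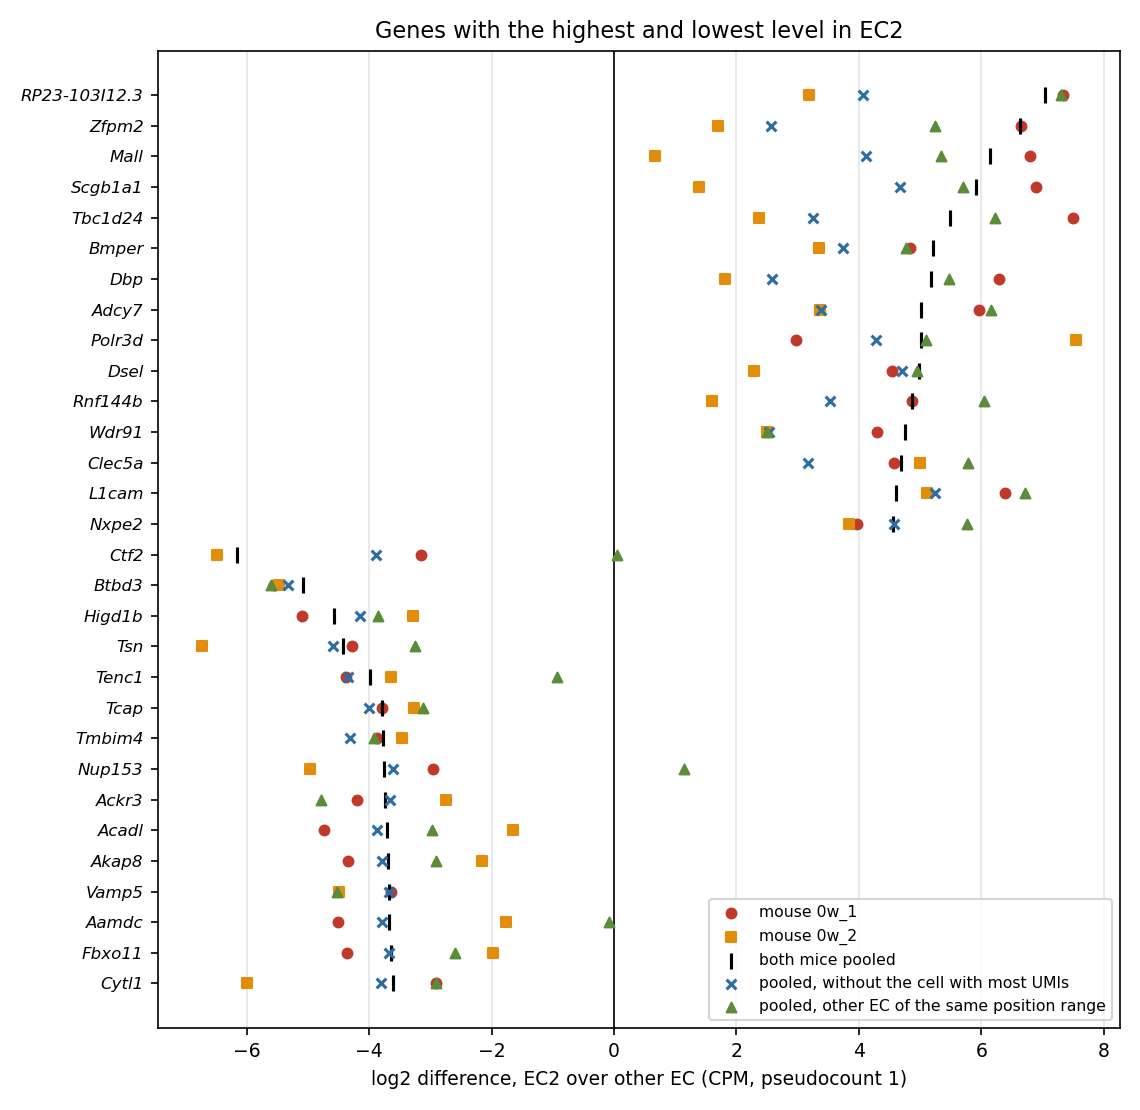
Log2 difference of EC2 over other EC of the plate (x axis, CPM with 1 added) for the genes of the highest (15) and lowest (15) pooled ratio (y axis), for each mouse, for both pooled, without the cell that holds most UMIs of the gene, and against other EC of the EC2 position rectangle. All 15 highest genes stay above 0 in each of these, and Ctf2 and Nup153 are above 0 among the lowest against other EC of the rectangle.

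Against EC1 alone, 192 of 2055 genes (9.34%) were at least 4-fold higher in EC2 and 136 (6.62%) at least 4-fold lower with the same sign in both mice. The 5 highest were RP23-103I12.3, Trib3, Mall, L1cam and Zfpm2, of which only Trib3 was not among the 15 above. Trib3, a pseudokinase induced by stress of the endoplasmic reticulum, stood at 217 and 49.1 CPM in EC2 of the 2 mice and at 0.654 CPM in pooled EC1. In the other EC as a whole it stood at 8.03 CPM. Of its 385 UMIs in EC2, 88.3% came from 1 cell. Its log2 difference against other EC was 4.42, and 2.27 without the highest cell of each group. The 5 lowest were Htra1, a secreted protease, Rfng, which modifies Notch receptors, Zscan26, Tsn and Golph3, with log2 differences of -5.89 to -4.75. Rfng stood at 0.584 and 3.51 CPM in EC2, against 212 and 3.67 CPM in EC1, so that 0w_2 showed about the same level in both groups, and with EC1 of the rectangle alone its log2 difference was 1.00.

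Many genes were found in a larger share of the EC2 cells than of other EC. At 3000 UMIs per cell, 175 of 2081 genes (8.41%) had a UMI in at least 20 percentage points more of the EC2 cells than of other EC, and 0 genes (0%) in at least 20 points fewer. The rule was set after the values were seen, and it counts genes whose mean share over both groups was 10% or more. Of the 2081 genes, 84.5% were found in more EC2 cells, with a median of 7.36 points, beside the higher number of genes per cell. Against the other EC of the rectangle alone, 158 genes were 20 points more frequent in EC2 and 3 less frequent. Of the 154 left after predicted and ribosomal protein genes were set aside, 151 were more frequent in EC2 of both mice.

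These 154 genes were sorted by which other cells of the plate had them most often. For 78 of them (50.6%) the highest share among other EC, FB, MP and T cells of the plate was in MP, for 45 (29.2%) in FB, for 15 (9.74%) in T cells and for 16 (10.4%) in other EC. Over all 1573 genes of the same mean share, these figures were 35.5% for MP, 31.0% for FB, 12.2% for T cells and 21.4% for other EC, so that MP alone was above its figure over all genes. The set also holds genes that all these cells use, such as Hspa5 and the splicing factor gene Srrm1. Ccl6, a chemokine of myeloid cells, had a UMI in 81.2% of thinned EC2 cells of 0w_1 and 100% of those of 0w_2, against 28.7% and 29.9% of other EC. It had one in 78.9% of MP and 18.2% of FB. C1qb, a subunit of complement C1q made by macrophages, had a UMI in 63.8% and 75% of EC2 cells, against 26.8% and 29.6% of other EC.

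Mfap5 and Dcn, proteins of the matrix made by fibroblasts, followed the same pattern. Mfap5 had a UMI in 72.5% and 75% of EC2 cells, against 28.4% and 33.7% of other EC, and in 79.2% of FB. Dcn had a UMI in 97.1% and 87.5% of EC2 cells, against 58.7% and 61.2% of other EC, and in 99.2% of FB. Ccl6, C1qb, Mfap5 and Dcn were picked from the genes most gained in EC2 with the same sign in both mice. That EC2 lay above other EC for them is therefore no result. Other EC of the rectangle were at 39.3% for Ccl6, 28.6% for C1qb, 39.3% for Mfap5 and 57.1% for Dcn. The pattern was not one of EC2 alone: EC3 of the plate had Ccl6 in 77.5% of its cells, C1qb in 60%, Mfap5 in 42.5% and Dcn in 92.5%. Cells that are not EC also differed by position for some of these genes and types. Mfap5 was found in 67.3% of cells that are not EC inside the rectangle and 43.4% outside, and in 63.2% of MP inside and 18.6% outside. Dcn was found in 84.2% of MP inside and 54.5% outside, and Ccl6 in 45.5% of T cells inside and 15.6% outside. C1qb was found in 43.6% of cells that are not EC inside and 41.0% outside, and in 89.5% and 94.9% of MP. Ccl6 was at 84.2% of MP inside and 78.2% outside, and Dcn at 95.5% and 99.5% of FB. The shares inside rest on 22 FB, 19 MP and 11 T cells.

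Genes of endothelial cells lay on both sides. Cxcl12, a chemokine of capillary and arterial endothelium, had a UMI in 63.8% and 68.8% of EC2 cells, against 25.9% and 31.0% of other EC, and in 10.6% of FB and 16.6% of MP. At 3000 UMIs Cd36 was found in 91.8% of EC2 cells and 75.5% of other EC, and Fabp4 in 95.3% and 84.8%. Hspa5, the main chaperone of the endoplasmic reticulum, had a UMI in 78.3% and 93.8% of EC2 cells, against 43.8% and 53.1% of other EC. Tcap ran the other way, found in 16.5% of EC2 cells and 34.9% of other EC, and so did Podxl, a sialomucin of the endothelial surface, in 11.8% and 25.4%. Cdh5, Kdr and Vwf were also found in no more of the EC2 cells than of other EC at this depth. In the rectangle, however, other EC had Podxl in 14.3% of cells and Tcap in 23.2%.

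**Figure D4:**
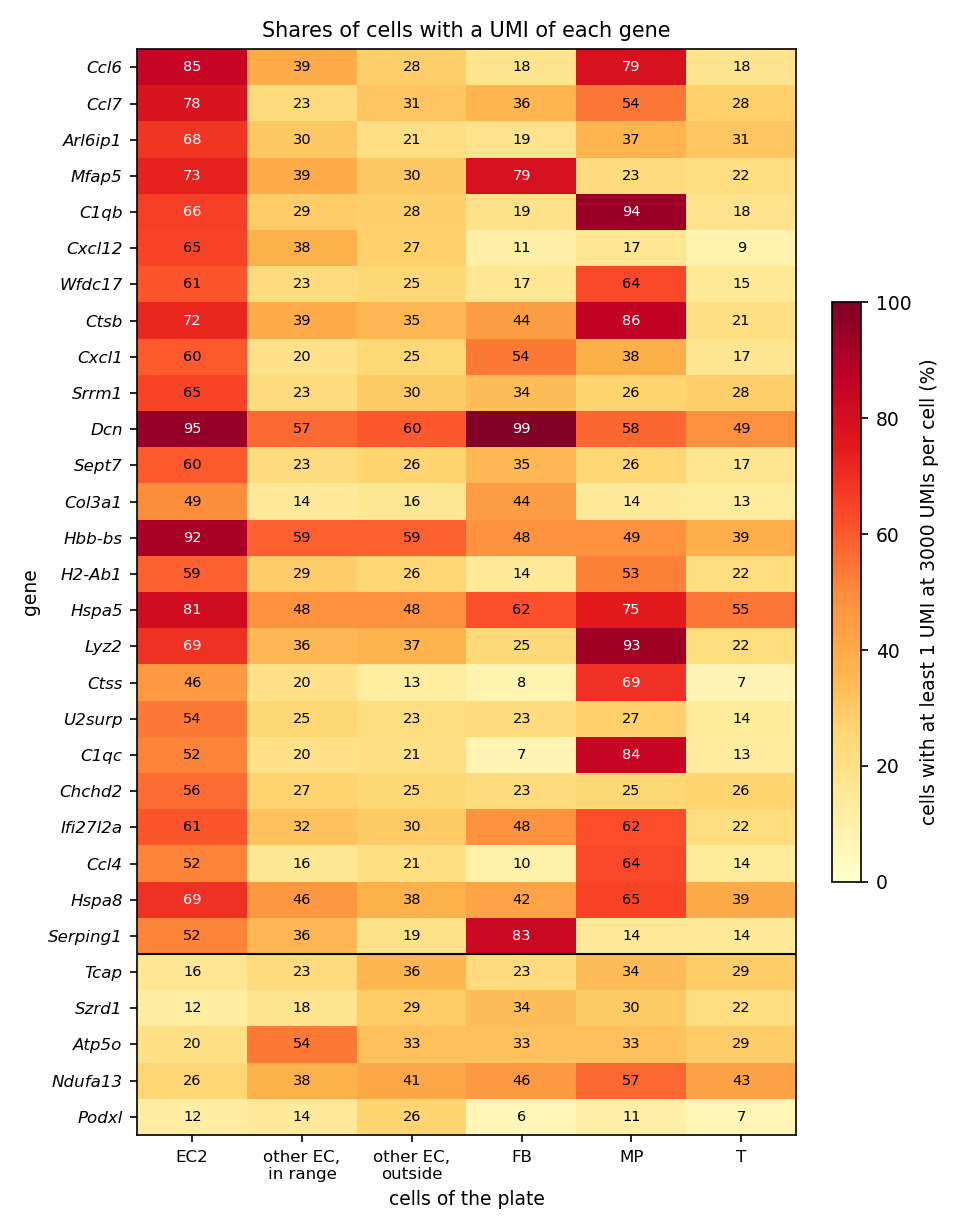
Percentage of cells with at least 1 UMI of each gene (rows) at 3000 UMIs per cell, in EC2, in other EC inside and outside the EC2 position rectangle, and in FB, MP and T cells of the plate (columns); the 25 genes above the line are those most gained in EC2 and the 5 below it those most lost. For Ccl6 the values are 84.7% in EC2, 39.3% and 28.3% in other EC inside and outside the rectangle, and 78.9% in MP.

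The lists of endothelial programmes were read against all genes at 10 CPM or more on average. Of these 8385 genes, 792 (9.45%) were at least 2-fold higher in EC2 and 2350 (28%) at least 2-fold lower with the same sign in both mice, and the median log2 difference was -0.23. With TMM factors the median over the genes at 100 CPM or more was 0.33 in place of 0.14, and with mitochondrially encoded genes in the totals it was 0.31. Medians of the lists described here kept their sign under both except where said.

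Capillary and fatty acid genes were near their level in other EC. Of 12 capillary genes 0 were 2-fold higher and 4 were 2-fold lower, with a median log2 difference of -0.39, and of 11 measured genes of fatty acid uptake and metabolism 0 were higher and 4 lower, with a median of -0.23. Cd36, a fatty acid transporter, stood at 4215 and 3207 CPM in EC2, against 3402 and 3936 CPM in other EC. Fabp4, a carrier of fatty acids in the cytoplasm, stood at 6686 and 5268 CPM in EC2, against 6347 and 6731 CPM. For both genes EC2 of 0w_1 was above and EC2 of 0w_2 below the other EC of the same mouse, and against other EC of the rectangle the log2 difference of Fabp4 was 0.32. Gpihbp1, which anchors lipoprotein lipase to the capillary wall, stood at 1813 and 1027 CPM in EC2, against 2694 and 2532 CPM in other EC, and was lower in both mice. Lpl, that lipase itself, stood at 2837 and 1973 CPM in EC2, against 1931 and 1957 CPM in other EC.

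Endocardial genes were lower in EC2 by summed CPM, but not by genes found per cell. Their sum was 276 and 284 CPM in EC2, against 810 and 1054 CPM in other EC, and 4 of the 6 measured members were at least 2-fold lower, 0 higher, with a median log2 difference of -3.41. Npr3 stood at 3.50 and 7.01 CPM in EC2, against 41.2 and 97.1 CPM in other EC. Vwf stood at 14.6 and 7.01 CPM in EC2, against 119 and 149 CPM in other EC, and 66.7% of its 27 UMIs in EC2 were from 1 cell. At equal depth the shares of cells hardly differed, at 2.35% of EC2 and 2.29% of other EC for Npr3 and 3.53% and 5.40% for Vwf. An EC2 cell held UMIs of 0.435 members of the list at that depth, against 0.427 in other EC. Other EC inside the rectangle summed to 525 CPM and those outside it to 995 CPM, beside 277 CPM in pooled EC2. Vwf also turned round against other EC of the rectangle, with a log2 difference of 1.59, while Npr3 had -4.20 there.

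The count of VEGF and angiopoietin genes was near that of all genes, with 3 of 10 measured members 2-fold lower and 0 higher, and an EC2 cell held UMIs of 1.52 of them at equal depth, against 1.43 in other EC. Its 4 members of the highest level were lower in both mice. Kdr, the main VEGF receptor, stood at 159 and 77.1 CPM in EC2, against 436 and 477 CPM in other EC, and its log2 difference of -1.63 was -1.58 within the rectangle and -1.90 without the highest cells. Flt1, a decoy receptor for VEGF, stood at 504 and 357 CPM in EC2, against 743 and 763 CPM in other EC. Nrp1, a VEGF coreceptor, stood at 431 and 372 CPM in EC2, against 510 and 583 CPM, and Tie1, a partner of the angiopoietin receptor, at 123 and 112 CPM, against 187 and 198 CPM. A UMI of Kdr was nevertheless found in 23.5% of EC2 cells and 24.5% of other EC at equal depth.

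Arterial and venous genes lay on both sides. Of 10 measured arterial genes 1 was 2-fold higher and 5 lower, and of 8 venous genes 2 were higher and 4 lower, with a venous median of -0.60 that became 0.18 in thinned cells. Mecom, a transcription factor of arterial endothelium, stood at 106 and 144 CPM in EC2, against 254 and 207 CPM in other EC. Efnb2, the arterial ephrin, stood at 34.5 and 28 CPM, against 124 and 104 CPM. Ephb4, its venous receptor, stood at 186 and 42.1 CPM in EC2, against 28 and 41.1 CPM in other EC, so that 0w_2 was at about the same level in both groups. Vcam1, an adhesion protein for leukocytes, stood at 53.1 and 1542 CPM in EC2, against 47.1 and 65.7 CPM, and 77.2% of its UMIs in EC2 were from 1 cell.

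Some matrix and clotting genes were higher. Col4a1, a collagen of the basement membrane, stood at 1635 and 1721 CPM in EC2, against 1089 and 1115 CPM in other EC. Lamb1, a laminin chain, stood at 306 and 596 CPM, against 139 and 119 CPM, and Sparcl1, a matrix protein of the SPARC family, at 1469 and 1458 CPM, against 1151 and 1084 CPM. These 3 genes were higher in both mice, and how often this holds over all genes was not counted. The basement membrane list had 2 members 2-fold higher and 2 lower of 12, beside 9.45% and 28% of all genes. Its median of -0.07 became 0.07 with TMM factors. Mmrn2, a ligand of endothelial CD93, stood at 605 and 112 CPM in EC2, against 125 and 83.3 CPM in other EC. Tfpi, an inhibitor of clotting, stood at 113 and 35.1 CPM, against 9.29 and 18.1 CPM, whereas Thbd, the receptor thrombomodulin, stood at 13.4 and 17.5 CPM, against 119 and 36.4 CPM. Of 7 measured haemostasis genes 2 were 2-fold higher and 4 lower.

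Interferon genes were lower in sum in both mice. Of 18 interferon response genes 0 were 2-fold higher and 7 lower, with sums of 2084 and 1970 CPM in EC2, against 2703 and 3336 CPM in other EC. Ifitm3, an antiviral membrane protein, stood at 1192 and 705 CPM in EC2, against 1644 and 1896 CPM. Nuclear genes of oxidative phosphorylation summed to 7743 and 11623 CPM in EC2, against 10574 and 11745 CPM in other EC, so that 0w_2 was about equal, and of 25 genes 0 were higher and 6 lower. At equal depth an EC2 cell held UMIs of more members of both lists, with 1.82 interferon and 7.61 oxidative phosphorylation genes, against 1.38 and 6.37 in other EC. Cox4i1, a subunit of cytochrome c oxidase, stood at 491 and 480 CPM in EC2, against 782 and 1175 CPM, and Uqcrq, of complex III, at 634 and 456 CPM, against 1142 and 1292 CPM. H2-K1, an MHC class I chain, ran the other way, at 855 and 1153 CPM in EC2, against 527 and 519 CPM in other EC. The MHC class I list as a whole did not, with 0 of 11 members 2-fold higher and 3 lower. Its median log2 difference was -0.59, and its sums were 4540 and 3526 CPM in EC2, against 4644 and 4212 CPM. The share of 28% lower among all genes stands beside these counts.

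Fos, an immediate early gene often induced by tissue digestion, stood at 728 and 526 CPM in EC2, against 837 and 1035 CPM in other EC. At equal depth it was found in 70.6% of EC2 cells and 51.1% of other EC, and against other EC of the rectangle its log2 difference was 0.05. Of the list, 1 of 22 measured immediate early genes was 2-fold higher and 1 lower. Malat1, a nuclear RNA, stood at 52098 and 49869 CPM in EC2, against 46673 and 43366 CPM in other EC, and was found in every thinned EC2 cell.

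**Figure D5:**
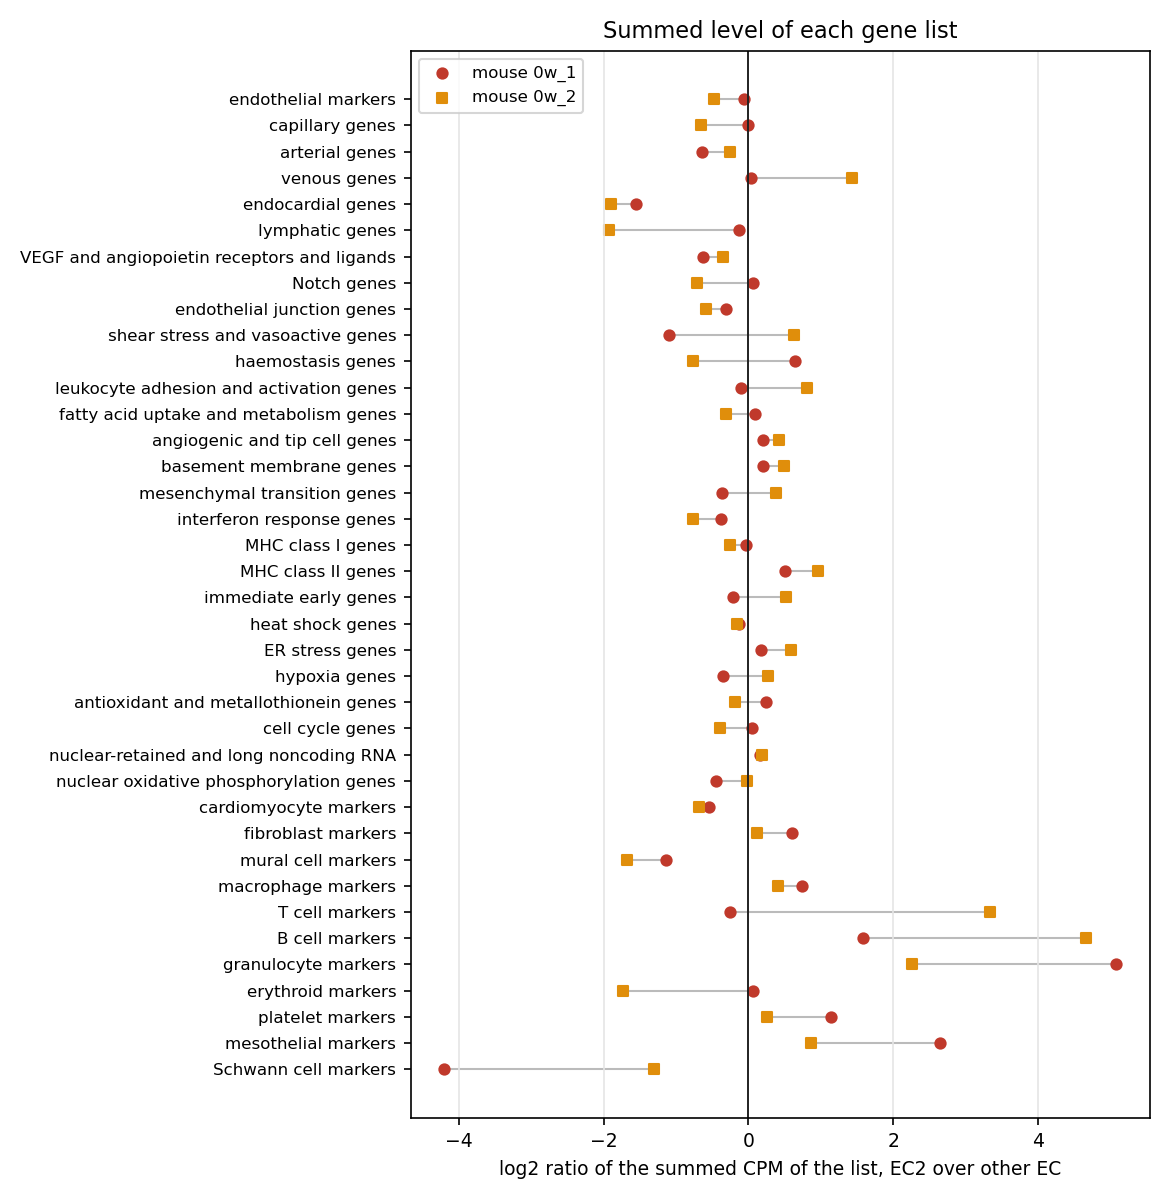
Log2 ratio of the summed CPM of each gene list (y axis), EC2 over other EC of the plate (x axis), for mouse 0w_1 (circles) and 0w_2 (squares), joined by a line. Endocardial and mural lists lie below 0 in both mice, and macrophage, fibroblast, granulocyte and B cell lists above 0 in both.

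Markers of other cells were present in EC2, and their part in the differences above was not tested. Fibroblast markers summed to 6474 and 4059 CPM in EC2 of 0w_1 and 0w_2, against 4274 and 3739 CPM in other EC and 29496 CPM in pooled FB of the plate. Other EC inside the rectangle held 5762 CPM of them, near the 6129 CPM of pooled EC2, and those outside it 3732 CPM. Of the 10, 0 were 2-fold higher or lower, 8 had a positive difference, beside 43.1% of all 8385 genes, and none was at 0. Macrophage markers summed to 2183 and 1963 CPM in EC2, against 1309 and 1475 CPM in other EC and 16787 CPM in pooled MP, with 7 of 8 measured members positive and none of the 9 at 0. At equal depth an EC2 cell held UMIs of 3.41 fibroblast and 2.79 macrophage markers on average, against 2.17 and 1.31 in other EC, 2.09 and 1.2 in other EC of the rectangle, 2.06 and 1.11 in EC1 and 3.48 and 3.58 in EC3, which was above EC2 in both. Endothelial markers per cell were 2.69 in EC2 and 2.55 in other EC.

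Summed muscle and mural markers were lower in EC2 than in all other EC of the plate. Cardiomyocyte markers summed to 2852 and 4070 CPM in EC2, against 4150 and 6504 CPM in other EC, with 0 of 11 measured members 2-fold higher, 4 lower and none at 0. Tnnt2, cardiac troponin T, stood at 207 and 98.1 CPM in EC2, against 503 and 971 CPM. Mural cell markers summed to 558 and 372 CPM in EC2, against 1226 and 1185 CPM, with 4 of 7 measured members 2-fold lower and Cspg4 at 0. Other EC inside the rectangle held 574 CPM of them, near the 531 CPM of pooled EC2, and those outside it 1305 CPM. Rgs5, of pericytes, stood at 509 and 228 CPM in EC2, against 754 and 841 CPM, but had a log2 difference of 0.24 against other EC of the rectangle. Erythroid markers, the haemoglobin RNAs, summed to 22719 and 7203 CPM in EC2, against 21824 and 23991 CPM, so that only 0w_2 was lower.

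Summed markers of granulocytes, B cells, platelets and mesothelium were higher in EC2 of both mice. Granulocyte markers summed to 226 and 102 CPM in EC2, against 6.71 and 21.3 CPM in other EC, with Csf3r and Ly6g at 0. B cell markers summed to 54.9 and 445 CPM, against 18.3 and 17.6 CPM, and T cell markers to 91.7 and 929 CPM, against 109 and 91.9 CPM, with Trac at 0. Pooled T cells of the plate held 2065 CPM of T cell markers. Platelet markers summed to 348 and 182 CPM, against 158 and 153 CPM, with Ppbp, Itga2b and Gp5 at 0, and mesothelial markers to 238 and 94.6 CPM, against 38.2 and 52.1 CPM, with Msln and Upk1b at 0. At equal depth, however, 7.06% of EC2 cells and 9.17% of other EC held a UMI of any mesothelial marker. Only 1 of the 6 platelet markers was at 10 CPM or more on average, and pooled MP held 1940 CPM of that list. An EC3 cell held UMIs of 0.6 platelet and 0.4 granulocyte markers at equal depth, against 0.318 and 0.212 in EC2. For B cell markers these values were 0.025 in EC3 and 0.165 in EC2. Schwann cell markers summed to 1.17 and 38.6 CPM, against 21.4 and 94.8 CPM, with S100b, Cdh19 and Sox10 at 0. A UMI of 3 or more markers of any of these other types was found in all 86 EC2 cells and in 617 of 622 other EC, so EC2 could not be described without such cells, and doublets were not called.

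Cells of other types in the same corner allow a look at the leading genes without the clustering of EC. The 15 highest genes of EC2 were higher inside the rectangle than outside it in 6 of 15 cases in FB (22 cells inside), in 9 of 15 in MP (19 cells) and in 3 of 15 in T cells (11 cells), beside 38.0%, 39.1% and 32.2% of all 2019 genes. Zfpm2 was among them, at 347 CPM in FB inside and 5.70 CPM in FB outside. So was Scgb1a1, at the lower levels of 6.37 and 0.782 CPM. The 15 lowest genes were lower inside in 12 cases in FB, 8 in MP and 11 in T cells. Most of all 2019 genes were not higher inside either. Their median log2 differences were -0.42 in FB, -0.41 in MP and -1.02 in T cells, beside -1.96, -1.12 and -2.69 for the 15. These are pooled cells of 2 mice and have no test.

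None of the leading genes passed the test in other cell types of these mice against the mice of other plates. UMIs were summed per mouse and type over all plates of a mouse. The 2 mice of the EC2 plate were set against other mice with edgeR's quasi-likelihood test. These others were 10 in FB, 14 in MP, 9 in T cells and 12 in cardiomyocytes (CM). The 2 mice had 1175 further cells on another plate. The EC2 plate held 708 EC, 237 FB, 175 MP and 152 T cells among its 1303 cells. Most of the CM summed, 383 and 551 per mouse, were thus from the other plate, so the CM result does not describe the EC2 plate. At an adjusted p under 0.05 (Benjamini-Hochberg), 90 of 15427 genes were called in FB (0.583%, of which 0.577% higher and 0.00648% lower in the mice of the plate), 55 of 13752 in MP (0.4%), 26 of 12109 in T cells (0.215%) and 0 of 15893 in CM (0%). In CM 468 genes had an unadjusted p under 0.05, and DESeq2 called 21. Of the 30 leading genes, 28 could be tested in FB, 29 in MP, 22 in T cells and 30 in CM, and 0 were called in each. Stage cannot be told apart from the plates of these 2 mice in these fits either.

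The closest was Scgb1a1 in T cells, at 365 and 40.7 CPM in 0w_1 and 0w_2, while the 9 mice of other plates had a median of 0 and a highest value of 9.09 CPM. Its log2 fold change was 6.15 ± 1.36 (SE) with an adjusted p of 0.0545 in edgeR's quasi-likelihood test. Both mice of the plate lay above all others. On the EC2 plate Scgb1a1 stood at 4.56 CPM in T cells inside the rectangle and 384 CPM in those outside it. In FB it was lower than the mean of the other mice but above the lowest of them, at 1.35 and 1.05 CPM in 0w_1 and 0w_2, while the 10 mice of other plates had a median of 5.50 CPM, a lowest value of 0 and a highest of 165 CPM. Its adjusted p there was 0.636 in the same test. In FB Adcy7 came closest, lower in the mice of the plate at 3.50 and 0.585 CPM, while those of other plates ranged over 11.1 to 100.3 CPM, with an adjusted p of 0.0739 in the same test, a direction opposite to that in EC2.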

How the data were processed

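Single cells of mouse left ventricles were profiled by polyadenylated RNA sequencing. The authors deposited whole-number UMI counts per gene and cell, not normalized, for 36950 genes, and a cell annotation whose other columns give each cell's mouse, plate, type and subcluster. Per the submitters' processing notes STAR 2.5.2b, Subread 1.4.6-p1 and featureCounts were used; annotation, strand setting and UMI collapsing are not stated there, so overlapping genes and close paralogs were not separated. On the plate of EC2 the authors' own UMI number was matched in 100% of cells once 34 mitochondrially encoded genes were left out. No cell filter was added, doublets were not called, and 0 cell names were shared between plates.

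The members, lists and comparisons were chosen with earlier results of these data known. UMIs were summed per mouse and group; CPM exclude mitochondrially encoded genes, and log2 differences add 1 CPM. Named genes reached 100 CPM in EC2 or other EC, had the same sign in both mice, and were the 15 highest and 15 lowest (5 and 5 against EC1), 9 fixed genes, and members of the lists among the 4 with the largest CPM. Widely detected genes were chosen after their values were seen. Cells were thinned once to 3000 UMIs with a fixed seed. Sums of other types, over mice with at least 10 cells and over all plates of a mouse, were fitted with edgeR 4.0.16 in R 4.3.3. The steps were filterByExpr, TMM, glmQLFit and glmQLFTest, with DESeq2 1.42.0 as an alternative. The edgeR fit was tested on simulated data made from the FB sums. EC2 shares were tested by permutation in numpy 2.4.6. The labels name each mouse as an individual.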

Additional observations from a re-analysis of the deposited data

How the results depend on the processing

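The count of genes at least 4-fold apart depended on the settings. Against other EC it was 233, and 112 with mitochondrially encoded genes in the totals, 525 against only other EC of the rectangle (an alternative chosen after seeing the data), and 423 to 719 when 1 of the 2 mice was left out, which also drops the rule of equal sign. Against EC1 it was 328, and 158 with mitochondrially encoded genes, 151 without the highest cell of each gene, 637 against EC1 of the rectangle and 552 to 855 with 1 mouse left out. Genes found in 20 points more of the EC2 cells numbered 175, and 78 at 2000 UMIs, 335 at 5000 UMIs, and 216 to 465 with 1 mouse left out. The cause was not tested. All 40 leading genes kept their sign under TMM factors, thinning, per-cell means, a pseudocount of 10 CPM and totals with mitochondrially encoded genes. They also kept it without the highest cell. That they kept it in each mouse alone is no result, since they were chosen for the same sign in both mice. Against other EC of the rectangle 37 kept their sign. There, 75 of the 88 log2 differences of named genes kept their sign. Those that turned were Ctf2 (0.043), Nup153 (1.15), Vwf (1.59), Thbd (0.11), Pdgfrb (0.30), Fabp4 (0.32), Fos (0.055), Cgnl1 (0.41), Sox17 (-0.66), Myl2 (0.56), Gsn (-0.51) and Rgs5 (0.24), and Rfng against EC1 of the rectangle (1.00). Leaving out cells with 3 or more markers of another type left 0 EC2 cells and was not run, and no other mice share the stage of the EC2 plate.

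The permutation test of EC2 shares (100000 permutations of stage labels, two-sided) had p = 0.165, 0.039 with mice of at least 10 EC and 0.0834 to 0.278 with 1 mouse left out; with 2 mice above 0 these p follow from how many mice each stage holds. In FB, 90 genes were called, 399 by DESeq2, 169 with no filter on low counts and 40 to 91 with 1 mouse left out, 40 without either 0w mouse and 58 without 5w_1. In MP, 55 were called, 22 by DESeq2, 413 with no filter and 30 to 76 with 1 mouse left out, the fewest without 5w_1, 0w_1 (31), 2w_2 (36) or 11w_2 (36). In T cells, 26 were called, 178 with no filter, 6 with mice of at least 20 cells and 0 to 31 with 1 mouse left out, 0 without 0w_1 and 4 to 13 without any 1 mouse of the other plates. In CM, 0 were called, 21 by DESeq2, 16 with no filter and 0 to 4 with 1 mouse left out. With the replicate number as a block the counts were 71 in FB, 10 in MP, 1 in T cells and 0 in CM; correlations of same-numbered mice's deviations were -0.0151 to 0.0807, so the numbers do not pair the mice. Where 1 of the 0w mice was left out of a fit, the other was assumed to vary like the mice of other plates. EC2 of 0w_2 rests on 16 cells, which limits every value of that mouse.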
